A study of Mus musculus with 2 samples.

Results

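The nuclear-encoded subunits of oxidative phosphorylation were followed here through the cell classes of a wild type kidney and a kidney labelled Kif3aΔTub. The genes were chosen by symbol alone: Nduf followed by a, b, c, s or v and a digit, Sdha to Sdhd, and every symbol that starts with Uqcr, Atp5 or Cox4 to Cox8, with the Ndufaf assembly factors left out. This rule found 84 of the 31053 gene entries, which carry 83 symbols because Atp5o is listed under 2 identifiers. They comprise 35 genes of complex I, 4 of complex II, 8 of complex III, 20 of complex IV (Ndufa4 and its paralog Ndufa4l2 were placed here) and 17 of complex V, and lie on 19 chromosomes. In the kept cells, 81 genes had at least 20 unique molecular identifiers (UMIs, counted RNA molecules) over both libraries, Cox7b2 had 2 UMIs, and Cox8c and the second Atp5o entry had none.

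The study profiled single kidney cells of 5-week-old mice by 3′ droplet sequencing, with 1 library labelled WT (control) and 1 labelled Kif3aΔTub (genotype KO), a deletion of the kinesin-2 motor gene Kif3a, which cells need to build a primary cilium. From each mouse 1 kidney was dissociated with a cold-active protease and put through red cell lysis and dead cell removal. The line that drives the deletion, the deleted part of the gene and the number of mice behind each library are not given in the sources used here. With 1 library per genotype no difference has a replicate check. Ranges in parentheses are exact 95% limits for the counting of UMIs and hold no other error, no p-value was computed, and "lower" and "higher" compare these 2 libraries.

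The analysis rests on 4317 cells of the wild type library with 42468386 UMIs and 7066 cells of the knockout library with 79060495 UMIs. The median cell held 7771 and 7799 UMIs, of which 26.8% and 7.54% were mitochondrial. Left out at 50% or more mitochondrial UMIs were 1361 and 372 barcodes, in which the subunits took 7.47% and 5.70% of the non-mitochondrial UMIs, where the kept cells had 7.93% and 4.59%. The libraries shared 20 barcodes, 17 of them among kept cells. Kif3a gave 438 UMIs in the wild type library, which is 10.3 (9.37 to 11.3) UMIs per 10⁶ UMIs (CPM), and 966 in the knockout library, 12.2 (11.5 to 13.01) CPM. By class it ran from 8.40 to 23.9 CPM in wild type and from 8.88 to 25.05 in knockout, and the direction differed. Principal and connecting cells had 23.9 CPM (15.5 to 35.3) in wild type and 10.9 (9.26 to 12.8) in knockout. Proximal tubule had 8.40 (7.41 to 9.49) and 14.6 (12.3 to 17.1), and in the other classes the limits overlapped. Reads of this assay lie near the 3′ end of a transcript and the deleted part is not known here, so these levels do not check the genotype label. Because mitochondrial UMIs differed so much, each level is given over all UMIs and over non-mitochondrial UMIs.

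Oxidative phosphorylation is carried out in the inner mitochondrial membrane. Complexes I and II take electrons from NADH and succinate, complex III passes them through cytochrome c to complex IV, which reduces oxygen, and complex V uses the resulting proton gradient to make ATP. A small set of subunits is encoded by mitochondrial DNA, all others by nuclear genes, and several nuclear subunits have paralogs used in particular tissues. In the kidney, proximal tubule, thick ascending limb, distal convoluted tubule and intercalated cells are rich in mitochondria, since they move salt and acid at high energy cost, while endothelium holds few.

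The wild type levels were ordered by class. Summed over cells, nuclear OXPHOS subunits took 11.2% of the non-mitochondrial UMIs in distal convoluted tubule-like cells, 10.3% in thick ascending limb-like, 9.32% in intercalated-like, 7.76% in proximal tubule-like, 5.47% in principal and connecting tubule-like and 2.10% in endothelium-like cells. The middle 50% of cells spanned 7.20% to 13.6% in the distal convoluted class, 8.68% to 12.0% in the thick ascending limb, 8.11% to 10.5% in intercalated and 6.46% to 8.96% in proximal tubule, so each of these 4 classes overlapped its neighbour in the order. The ranges of principal (4.90% to 5.91%) and endothelial cells (1.68% to 2.19%) lay apart from those above them.

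In the knockout library the order was different. The proximal tubule-like class was highest at 6.96%, followed by intercalated-like at 6.64%, distal convoluted at 5.89%, principal and connecting at 4.60%, thick ascending limb at 4.33% and endothelium at 2.02%. The thick ascending limb thus ranked 2 of 6 in wild type and 5 of 6 in knockout. Classes with too few wild type cells for a comparison were low in the knockout library: 2.10% in macrophage-like, 2.20% in monocyte-like, 1.79% in neutrophil-like and 2.65% in urothelium-like cells. Clusters that met no cell type rule and held few wild type cells ranged from 3.07% to 5.49%, with 3.47% in one led by Sprr2f and Lcn2 (897 knockout cells and 1 wild type cell), 3.07% in one led by Tagln and Vcam1 (111 and 3 cells), 5.04% in one led by Aqp6 and Atp6v1g3 (302 and 22), 3.93% in one led by Col3a1 and Aqp2 (557 and 18) and 5.49% in one led by Cfd (64 and none).

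**Figure D1:**
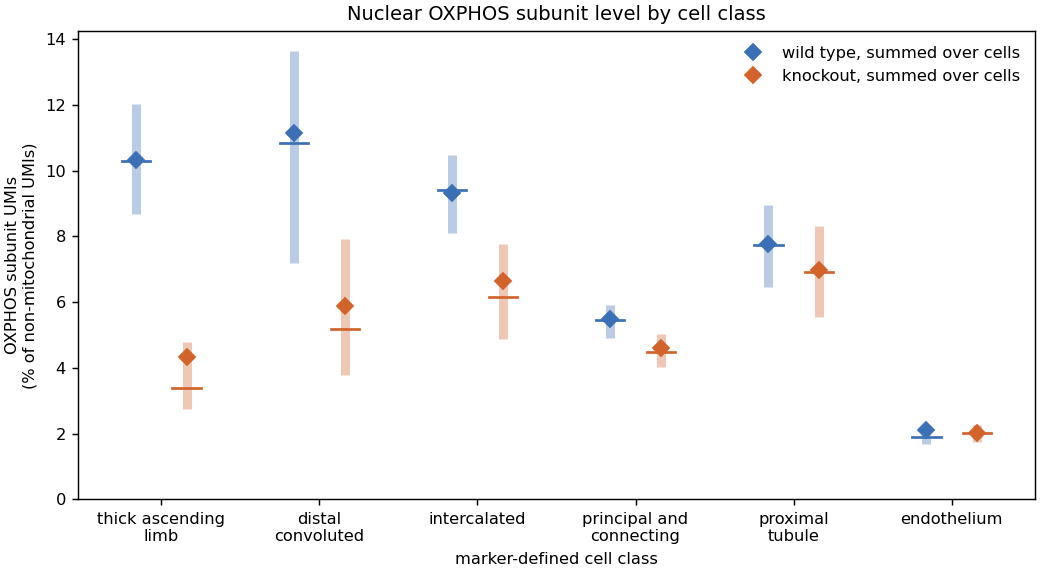
Nuclear OXPHOS subunit UMIs as % of non-mitochondrial UMIs (y axis) in 6 marker-defined classes (x axis) for the wild type (blue) and knockout (orange) library. Diamonds are sums over the cells of a class, horizontal lines the median cell and shaded bars the middle 50% of cells: the thick ascending limb lies at 10.3% and 4.33%, while endothelium lies at 2.10% and 2.02%.

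The largest difference between the libraries was in thick ascending limb-like cells, the segment that takes up sodium, potassium and chloride through Slc12a1. In 340 wild type cells the subunits took 6.84% of all UMIs, and in 578 knockout cells 3.92%, a log2 ratio of -0.80 (knockout over wild type). Over non-mitochondrial UMIs the values were 10.3% and 4.33%, a log2 ratio of -1.25. The middle 50% of cells did not overlap, at 8.68% to 12.0% in wild type and 2.75% to 4.77% in knockout. On the all-UMI scale 60 of the 77 subunit genes with at least 20 UMIs in this class were at least 1.5-fold lower where 8.94% of all genes were lower by that much. None was 1.5-fold higher, where 43.6% of all genes were (22.3% over non-mitochondrial UMIs, again with no subunit). On the non-mitochondrial scale the count was 75 of 77, against 18.7% of all genes, and the median subunit stood at -1.22 where the median gene stood at 0.031. Abundant genes as a group did not share this shift: of 1597 genes other than the subunits with at least 100 CPM on average, 20.3% were at least 1.5-fold lower, against 98.6% of the 74 subunits as abundant as that.

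Other features moved with this difference. Mitochondrial transcripts took 33.7% of the UMIs of the wild type thick ascending limb class and 9.33% of the knockout class, the 17 listed dissociation-response genes summed to 553 and 2807 CPM, and the 10 listed injured-tubule genes to 3048 and 47992 CPM. The 9 markers of the class itself summed to 29034 and 10604 CPM. The class was made of different clusters in the 2 libraries, with 329 wild type and 19 knockout cells in one and 11 and 559 in the other, and no cluster of it had 30 cells of each. The part of each of these in the subunit levels was not tested.

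Distal convoluted tubule-like cells, which reabsorb sodium chloride through Slc12a3, came next. The subunits took 7.19% of all UMIs in 219 wild type and 5.05% in 411 knockout cells (log2 ratio -0.51), and 11.2% and 5.89% of non-mitochondrial UMIs (-0.92). Of 77 genes, 19 were at least 1.5-fold lower over all UMIs (7.39% of all genes) and 70 over non-mitochondrial UMIs (16.5%). A single gene, Cox7a2l, was 1.5-fold higher over all UMIs (43.8% of all genes) and none over non-mitochondrial UMIs (22.7%). Here too the libraries differed in makeup. A cluster led by Pvalb and Slc12a3 held 170 wild type and 2 knockout cells and stood at 12.2% in wild type. The cluster both libraries shared was led by Slc12a3, Klk1 and S100g. In it 5 of 7 distal convoluted markers and 8 of 10 principal and connecting markers met the naming limits, where the Pvalb cluster had 7 of 7 distal convoluted markers. In the shared cluster 49 wild type cells stood at 7.05% and 409 knockout cells at 5.89%, a log2 ratio of -0.26. There 16 of 77 genes were at least 1.5-fold lower (22.3% of all genes). Inside the shared cluster the difference was smaller than in the class, and the share of lowered subunits was near that of all genes. Most subunits still had a ratio below 0 there (62 of 77), with a median of -0.28 where the median gene stood at -0.018. Mitochondrial UMIs were 35.5% and 14.2% of the class, the dissociation-response genes 816 and 2825 CPM and the injured-tubule genes 4382 and 37158 CPM. The markers of the class itself summed to 15658 and 4494 CPM, and those of principal and connecting cells to 990.3 and 2412 CPM. The part of each was not tested.

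In intercalated-like cells, which secrete acid or bicarbonate, the subunits took 6.80% of all UMIs in 286 wild type and 5.81% in 443 knockout cells (log2 ratio -0.23), and 9.32% and 6.64% of non-mitochondrial UMIs (-0.49). Over all UMIs 4 of 77 genes were at least 1.5-fold lower (7.42% of all genes), and over non-mitochondrial UMIs 28 (13.3%). No gene was 1.5-fold higher on either scale, where 26.0% and 14.3% of all genes were. Mitochondrial UMIs were 27.0% and 12.5% of the class, the dissociation-response genes 974 and 2441 CPM and the injured-tubule genes 3269 and 22324 CPM. Both intercalated clusters held cells of each library, and their ratios differed. The cluster led by Aqp6 and Slc4a1, both genes of acid-secreting type A cells, went from 9.85% in 124 wild type to 6.30% in 305 knockout cells (-0.64, with 45 of 77 genes at least 1.5-fold lower against 13.1% of all genes). In a finer clustering (resolution 2) this cluster split by library, into one with 122 wild type and 11 knockout cells and one with 1 and 297, while the other intercalated cluster stayed whole (162 and 138). The other went from 8.86% in 162 to 7.39% in 138 cells (-0.26, 7 of 77 genes against 18.5%). In that cluster 68 of 77 genes had a ratio below 0, with a median of -0.28 where the median gene stood at -0.075.

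Principal and connecting tubule-like cells, the site of Aqp2-dependent water uptake, stood at 4.61% and 4.24% of all UMIs (135 and 914 cells, log2 ratio -0.12) and at 5.47% and 4.60% of non-mitochondrial UMIs (-0.25). The counts of genes at least 1.5-fold lower were below the share of all genes: 4 of 77 over all UMIs (15.3% of all genes) and 9 over non-mitochondrial UMIs (20.5%). A ratio below 0 over non-mitochondrial UMIs was found for 65 of 77 (59.2% of all genes), with a median of -0.23 where the median gene stood at -0.13. On each scale 1 gene, Cox6b2, was 1.5-fold higher (17.5% and 14.1% of all genes). In the cluster with both libraries the direction turned, from 5.46% in 126 wild type to 5.96% in 89 knockout cells (0.12), with 2 of 76 genes at least 1.5-fold lower (18.7% of all genes) and 24 of the 76 with a ratio below 0. The other cluster held 825 of the 914 knockout cells and 9 wild type cells. Mitochondrial UMIs were 15.8% and 7.75% of the class, the dissociation-response genes 1490 and 1839 CPM and the injured-tubule genes 1761 and 23573 CPM.

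Proximal tubule-like cells showed no such shift over all UMIs, at 5.48% in 2964 wild type and 5.52% in 998 knockout cells (log2 ratio 0.011). Over non-mitochondrial UMIs they stood at 7.76% and 6.96% (-0.16). On that scale 62 of 78 genes had a ratio below 0 (42.8% of all genes), with a median of -0.18 where the median gene stood at 0.083. Over all UMIs the median subunit stood at -0.0089 where the median gene stood at 0.25. Of 78 genes, 2 were at least 1.5-fold lower over all UMIs (8.48% of all genes) and 4 over non-mitochondrial UMIs (12.0%), with 1 gene, Cox6b2, higher on either scale (25.6% and 18.8% of all genes). Mitochondrial UMIs were 29.4% and 20.7% of the class, the dissociation-response genes 277 and 736 CPM and the injured-tubule genes 1110 and 15720 CPM. Most knockout cells (869) sat in a cluster with 8 wild type cells. In the 3 clusters shared by both libraries, the log2 ratios were -0.14 (6 of 78 genes at least 1.5-fold lower, 14.4% of all genes), -0.21 (11 of 75, 21.2%) and -0.096 (5 of 78, 21.9%). In endothelium-like cells (155 and 474) the subunits took 1.90% and 1.91% of all UMIs (0.0049) and 2.10% and 2.02% of non-mitochondrial UMIs (-0.057), and none of 74 genes was 1.5-fold lower on either scale, where 10.8% and 12.7% of all genes were. None was 1.5-fold higher either (12.9% and 11.1% of all genes). Its 2 clusters stood at -0.094 (4 of 74 genes, 15.4% of all genes) and -0.0030 (1 of 74, 13.5%). Mural cells (48 and 37) stood at 3.84% and 3.14% (-0.29, 14 of 76 genes, 20.0%). Cycling cells stood at 7.76% in 65 wild type and 4.63% in 140 knockout cells (-0.75), with 53 of 77 genes lower against 21.2% of all genes. Their median mitochondrial shares were 24.5% and 6.35%. In the finer clustering these cells split largely by library, into a cluster with proximal tubule markers (74 wild type and 31 knockout cells) and one with principal cell markers (8 and 97), so library and cell origin cannot be told apart here.

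**Figure D2:**
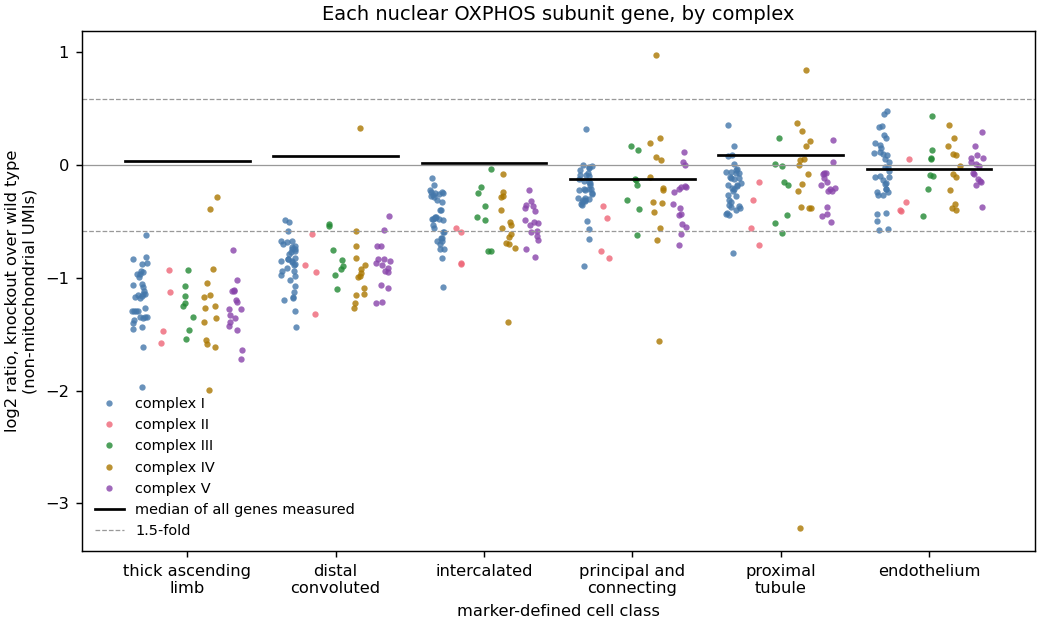
Log2 ratio of knockout over wild type on non-mitochondrial UMIs (y axis) for each subunit gene with at least 20 UMIs in the class (points, coloured by complex) in 6 cell classes (x axis). Black bars are the median of all genes measured and dashed lines mark 1.5-fold: in the thick ascending limb 75 of 77 points lie below the lower line, in endothelium none.

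The subunit difference was followed against the mitochondrial share of the cells, since both went the same way. Among cells with 10% to 30% mitochondrial UMIs, the thick ascending limb class stood at 9.39% in 102 wild type and 6.75% in 176 knockout cells, a log2 ratio of -0.48 on non-mitochondrial UMIs, and 27 of 77 genes were at least 1.5-fold lower where 19.2% of all genes were. A ratio below 0 was found for 75 of the 77, and the median subunit stood at -0.51 where the median gene stood at -0.11. Within the narrower bins the gap was smaller still: 7.17% and 6.05% at 10% to 20% (-0.25) and 9.83% and 8.32% at 20% to 30% (-0.24). The lowest level in this class belonged to 383 knockout cells below 10% mitochondrial UMIs, at 3.56%, a bin with only 12 wild type cells. The difference inside the window was thus well under that of the whole class. The window did not make the libraries equal: mitochondrial UMIs were still 24.9% in its wild type and 17.5% in its knockout cells.

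The same window gave log2 ratios of -0.31 in the distal convoluted class (11 of 77 genes lower, 20.1% of all genes, and none higher, 20.2%), -0.28 in intercalated (6 of 77, 12.2%), -0.099 in proximal tubule (5 of 78, 12.3%) and -0.067 in principal and connecting cells (4 of 77, 16.9%). Here too mitochondrial UMIs differed inside the window, at 22.3% and 16.9% in distal convoluted and 23.5% and 15.0% in intercalated cells. They were 21.7% and 18.4% in proximal tubule, 16.1% and 13.1% in principal and connecting cells and 17.8% and 16.5% in endothelium. Of the 6 classes, the thick ascending limb and endothelium had a share of lowered subunits above that of all genes in this window. A ratio below 0 was found for 71 of 77 genes in distal convoluted and 72 of 77 in intercalated cells. It was found for 57 of 78 in proximal tubule and 46 of 77 in principal and connecting cells. In the same order the median subunit stood at -0.34, -0.29, -0.14 and -0.054, where the median gene stood at -0.042, -0.020, 0.054 and -0.11. The endothelial window was small, with 36 and 47 cells at 2.81% and 2.07% (-0.44, 24 of 69 genes against 18.3%), and over the whole class none of 74 was lower (12.7% of all genes). Below 10% mitochondrial UMIs, where most endothelial cells lay, endothelium stood at 1.93% in 110 wild type and 2.01% in 422 knockout cells. In knockout distal convoluted cells the level went from 4.45% below 10% mitochondrial UMIs to 9.97% at 30% to 50%, and in knockout proximal tubule it lay between 5.81% and 7.78% over the same bins.

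**Figure D3:**
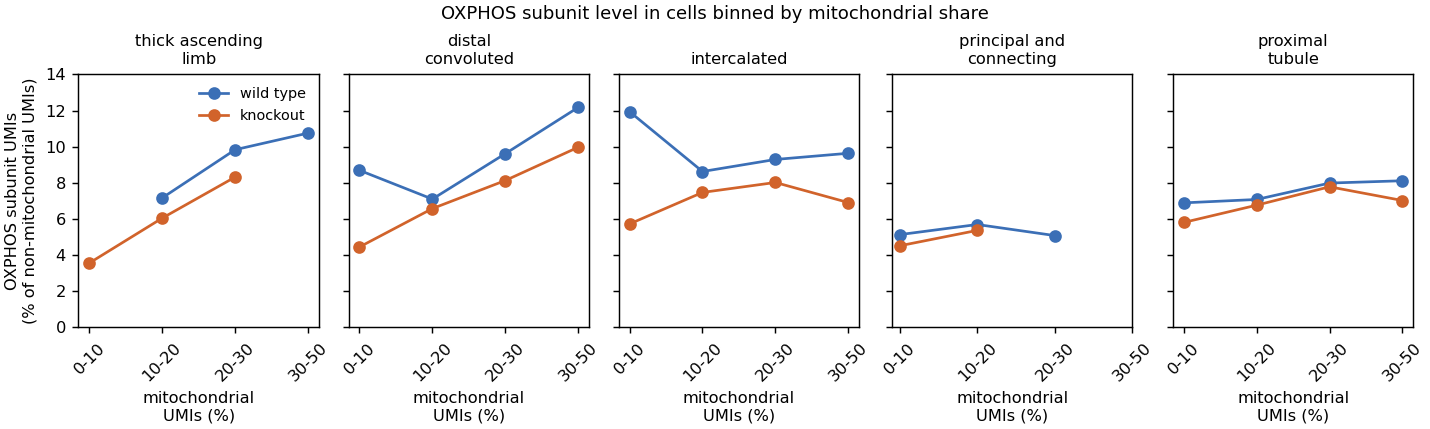
Nuclear OXPHOS subunit UMIs as % of non-mitochondrial UMIs (y axis) in cells binned by their mitochondrial UMI share (x axis, %), for wild type (blue) and knockout (orange) cells of 5 classes; bins with under 20 cells are left out. Wild type lies above knockout in each bin that both libraries fill, as at 7.17% and 6.05% in the thick ascending limb at 10% to 20%.

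By complex, the shift was broad. In the thick ascending limb the non-mitochondrial log2 ratios of the summed genes were -1.18 for complex I, -1.33 for complex II, -1.24 for complex III, -1.27 for complex IV and -1.31 for complex V. At least 1.5-fold lower on that scale were 35 of 35 complex I, 4 of 4 complex II, 8 of 8 complex III, 12 of 14 complex IV and 16 of 16 complex V genes measured. The makeup of the whole set hardly moved: complex I gave 27.2% of its UMIs in wild type and 28.6% in knockout, complex IV 33.5% and 33.1% and complex V 27.9% and 26.9%. Complex II, succinate dehydrogenase, had the lowest ratio of the 5 in each of the 6 classes, though its limits overlapped those of another complex in the thick ascending limb, the distal convoluted class (-0.99) and endothelium (-0.28). In proximal tubule it stood at -0.46 (-0.49 to -0.42) and the next lowest, complex V, at -0.24 (-0.25 to -0.24). In principal and connecting cells the same 2 stood at -0.61 (-0.71 to -0.51) and -0.35 (-0.37 to -0.32), and in intercalated cells at -0.72 (-0.79 to -0.66) and -0.52 (-0.53 to -0.50).

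Among the core subunits of complex I, Ndufs1 (chr1:63143596-63176833, minus strand), the large iron-sulfur subunit of the electron-input arm, stood out by its place in the order. In the thick ascending limb it had 188 CPM in wild type and 65.7 in knockout, a log2 ratio of -1.52 (-1.70 to -1.34) over all UMIs. It was among the 5 lowest of the ranked subunits (at least 100 UMIs) in 5 of 6 classes. In proximal tubule it had 177 CPM and 116 (-0.62, -0.71 to -0.53). The set as a whole stood there at 0.011 over all and -0.16 over non-mitochondrial UMIs. In intercalated cells Ndufs1 had 221 and 125.3 CPM (-0.82). Ndufv1, which binds NADH in the same arm, had 195 and 102 CPM in the thick ascending limb (-0.93) but 139 and 149 in proximal tubule (0.10). The 2 genes of 1 enzyme arm thus did not move alike in proximal tubule, where their limits did not overlap.

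Sdha (chr13:74322254-74350280, minus strand), the flavoprotein that oxidises succinate, was among the 5 lowest in 4 of 6 classes. It had 378 CPM and 173 in the thick ascending limb (-1.13), 416 and 221 in the distal convoluted class (-0.91), 379 and 248.9 in intercalated cells (-0.61), 232 and 143 in principal and connecting cells (-0.70) and 333 and 229 in proximal tubule (-0.54). The iron-sulfur partner Sdhb had 366 and 180 CPM in the thick ascending limb (-1.02) and 258 and 260 in proximal tubule (0.013). In endothelium the interval of Sdha took in 0 (-0.34, -0.72 to 0.047).

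In complex III, the Rieske iron-sulfur protein Uqcrfs1 had 572 CPM in wild type and 423 in knockout proximal tubule (-0.43, -0.48 to -0.39), among the 5 lowest of that class. It had 769 and 542 CPM in intercalated cells (-0.50). The core protein Uqcrc1 had 342 and 169 CPM in the thick ascending limb (-1.01), yet 145 and 146 in principal and connecting cells (0.0028, -0.23 to 0.25). The small subunit Uqcr11 was among the 5 highest ratios in 3 classes, with 591 and 783 CPM in proximal tubule (0.41) and 637 and 746 in intercalated cells (0.23, and -0.034 over non-mitochondrial UMIs).

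In complex IV, Cox4i1, the ubiquitous form of the regulatory subunit 4, had 2149 CPM in wild type and 1544 in knockout thick ascending limb (-0.48), and 1483 and 2049 in proximal tubule (0.47, 0.44 to 0.49). Over non-mitochondrial UMIs the proximal value was 0.30, so it stayed above 0 on both scales for the class taken whole. Most knockout proximal cells (869) sat in a cluster with 8 wild type cells, and the part of cluster makeup in this ratio was not tested. Cox5a, which sits beside it, had 1878 and 1068 CPM in the thick ascending limb (-0.81) and 1599 and 1698 in proximal tubule (0.087 over all and -0.081 over non-mitochondrial UMIs). In complex V, the catalytic beta subunit Atp5b had 1905 and 966 CPM in the thick ascending limb (-0.98) and 1461 and 1210 in proximal tubule (-0.27), and the stalk subunit Atp5o 972 and 612 (-0.67) and 680 and 776 (0.19).

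Other genes at the ends of the order were mostly small subunits. In the distal convoluted class the lowest were Ndufa1, with 907 CPM in wild type and 444 in knockout (-1.03), Sdha, and Ndufb8 with 1169 and 635 (-0.88). The highest there were Ndufs4 (254 and 241, -0.075), Atp5g2 and Cox7a2l. In the thick ascending limb Ndufa2 was among the highest, with 371 and 331 CPM (-0.17, and -0.62 over non-mitochondrial UMIs). In intercalated cells Sdhc was among the lowest (307 and 199.6, -0.62) and Ndufb7 among the highest (325 and 358, 0.14, and -0.12 over non-mitochondrial UMIs), so its direction depended on the scale. In endothelium, the lowest were Ndufv2, with 142 and 99.6 CPM (-0.51, -0.88 to -0.13), Ndufs1 and Ndufc1 (179 and 132, -0.44), and the highest Ndufs8 (80.2 and 117, 0.54, 0.10 to 1.02), Ndufa12 (168 and 240.2, 0.51) and Uqcr11 (157 and 221, 0.49). In proximal tubule Ndufb6 was among the highest, with 370.4 and 529 CPM (0.51). In principal and connecting cells Ndufb2 had 170.3 and 232 CPM (0.44).

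Subunits with paralogs showed clearer cell type patterns. The 3 genes Atp5g1, Atp5g2 and Atp5g3 encode the same mature c subunit, the protein that forms the rotor ring of complex V, with different import sequences. In the thick ascending limb Atp5g1 had 2269 CPM in wild type and 941 in knockout (-1.27, -1.32 to -1.22), Atp5g3 1308 and 736 (-0.83) and Atp5g2 986 and 797 (-0.31, -0.37 to -0.24). None of these intervals overlapped, so the 3 genes were lowered unequally. Atp5g1 gave 49.7% of the c subunit UMIs in wild type and 38.0% in knockout, Atp5g2 21.6% and 32.2%, and Atp5g3 28.7% and 29.7%. The share of Atp5g1 was also lower in the knockout library in the distal convoluted class (51.8% and 42.9%), principal and connecting cells (41.4% and 34.3%), intercalated cells (49.7% and 44.4%) and proximal tubule (52.7% and 47.8%). In the distal convoluted cluster that held cells of both libraries the share did not differ beyond its limits, at 41.8% (38.5% to 45.1%) and 42.9% (42.1% to 43.7%), while the cluster with 170 wild type and 2 knockout cells stood at 53.2%. In the 3 shared proximal clusters the limits of the 2 libraries overlapped in the smaller ones (53.7% and 52.2%, 54.3% and 51.6%) and not in the largest (53.3% and 49.2%). In the shared principal cluster the share was lower in the knockout library, at 41.6% (39.7% to 43.4%) and 36.0% (34.3% to 37.7%). It was also lower in both intercalated clusters (48.9% and 43.2%, 50.5% and 46.7%), again with limits that did not overlap. Atp5g2 was the main gene in endothelium (48.7% and 52.7%) and in macrophage-like (56.6%) and monocyte-like (51.2%) knockout cells. It also led narrowly in the principal cluster with 825 knockout cells, at 36.2% where Atp5g1 had 34.2%. Shares within the family do not depend on the choice of denominator.

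The sequences upstream of these genes are shown because 3 genes for 1 protein differed, together with that of Ndufb4 as an example of a match to NRF1, a factor known to act on many respiratory genes. They were taken from RefSeq on the GRCm38.p6 build, start 250 bases before the RefSeq transcription start, run 5′ to 3′ on the gene's strand (minus for all 4) and stop at the first base of any annotated exon. Capitals mark a match, on either strand, to the NRF1 motif (in Ndufb4, where the C after the A may be any base) or the estrogen-related receptor motif (TCAAGGTCA, in Atp5g3, on the other strand).
Atp5g1, chr11:96075671-96075881: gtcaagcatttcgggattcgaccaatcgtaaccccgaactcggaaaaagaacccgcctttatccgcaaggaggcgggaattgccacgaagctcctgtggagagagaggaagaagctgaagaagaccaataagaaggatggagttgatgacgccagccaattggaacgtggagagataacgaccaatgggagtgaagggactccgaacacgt
Atp5g2, chr15:102671128-102671297: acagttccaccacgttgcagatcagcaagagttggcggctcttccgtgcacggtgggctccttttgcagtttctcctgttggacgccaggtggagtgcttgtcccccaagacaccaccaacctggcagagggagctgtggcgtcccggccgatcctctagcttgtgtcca
Atp5g3, chr2:73911327-73911576: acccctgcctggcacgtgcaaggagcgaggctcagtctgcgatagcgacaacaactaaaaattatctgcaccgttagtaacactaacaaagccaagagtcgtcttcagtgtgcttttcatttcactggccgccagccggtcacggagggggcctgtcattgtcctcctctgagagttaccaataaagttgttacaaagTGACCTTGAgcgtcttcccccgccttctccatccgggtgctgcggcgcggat
Ndufb4, chr16:37654454-37654618: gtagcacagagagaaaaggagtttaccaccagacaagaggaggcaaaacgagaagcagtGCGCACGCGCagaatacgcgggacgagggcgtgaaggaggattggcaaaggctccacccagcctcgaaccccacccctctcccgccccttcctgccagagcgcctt

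Of the 83 symbols, 66 had a RefSeq upstream entry. In the full 250 bases, the NRF1 motif was found for 13 of the 66 (19.7%), against 4.23% of 27025 genes and 11.9% of 1014 other genes with at least 100 CPM. Atp5g2 held it inside its annotated exon and Atp5g1 did not. Atp5g3 was the only 1 of the 66 with the estrogen-related receptor motif (1.52%). It was found for 0.422% of all genes and 0.296% of the other abundant genes. The ETS motif bound by GABP (CCGGAAGT) was found for 4.55% of the subunits, 3.23% of all genes and 6.02% of the other abundant genes. A 10-base YY1 motif was found for 1.52%, 0.359% and 0.690%. The median non-mitochondrial ratio in the thick ascending limb was -1.20 for the subunits with the NRF1 motif and -1.28 for those without. Ndufb4 itself had 635 CPM and 341 there (-0.90).

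Cox7a2l (chr17:83501918-83517330, minus strand), a Cox7a-related protein that helps complexes III and IV join into supercomplexes, was among the 5 highest ratios in 5 of 6 classes. It had 240 CPM (217 to 264) in wild type and 399 (382 to 417) in knockout distal convoluted cells, a log2 ratio of 0.73, which was 0.32 over non-mitochondrial UMIs. It had 201 and 291 CPM in proximal tubule (0.53 and 0.36 on the 2 scales), 441 and 568 in principal and connecting cells (0.36 and 0.23), 560 and 633 in intercalated cells (0.18 and -0.086), and 453 and 471 in the thick ascending limb (0.055 and -0.40). Its direction thus depended on the scale in the last 2 classes. Set against its paralogs, its share of Cox7a family UMIs was higher in the knockout library in each of these classes taken whole, as in the thick ascending limb with 18.9% and 34.1% and in the distal convoluted tubule with 9.90% and 23.3%. Within clusters that held both libraries the picture was mixed. The share was higher in the knockout cells of the shared distal convoluted cluster (13.1% and 23.3%) and of the Aqp6 and Slc4a1 intercalated cluster (20.4% and 30.3%). It was 27.3% and 24.8% in the shared principal cluster and 10.5% and 9.98% in the largest shared proximal cluster, with overlapping limits in both. In the smaller shared proximal clusters (12.7% and 16.3%, 12.6% and 14.8%) and the other intercalated cluster (22.2% and 24.5%) the limits overlapped as well. The clusters held almost only by the knockout library stood at 37.6% among principal and 15.3% among proximal cells. Endothelium (45.5% and 54.0%) and knockout macrophage-like cells (61.2%) had the highest shares among these classes.

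Cox7a1, the form of this subunit typical of heart and skeletal muscle, was highest in the collecting system. It had 83.9 CPM (74.2 to 94.6) in wild type and 38.2 (32.5 to 44.8) in knockout intercalated cells, a log2 ratio of -1.13. Principal and connecting cells had 53.6 and 20.1 CPM (-1.43), and the thick ascending limb 21.0 and 7.17 (-1.55). The wild type and knockout intervals did not overlap in any of these 3 classes. In the distal convoluted class they did overlap, at 20.9 and 14.1 CPM. In proximal tubule the levels were 16.8 and 14.5 CPM, and in endothelium 3.08 and 1.14 from 2 UMIs in each library.

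**Figure D4:**
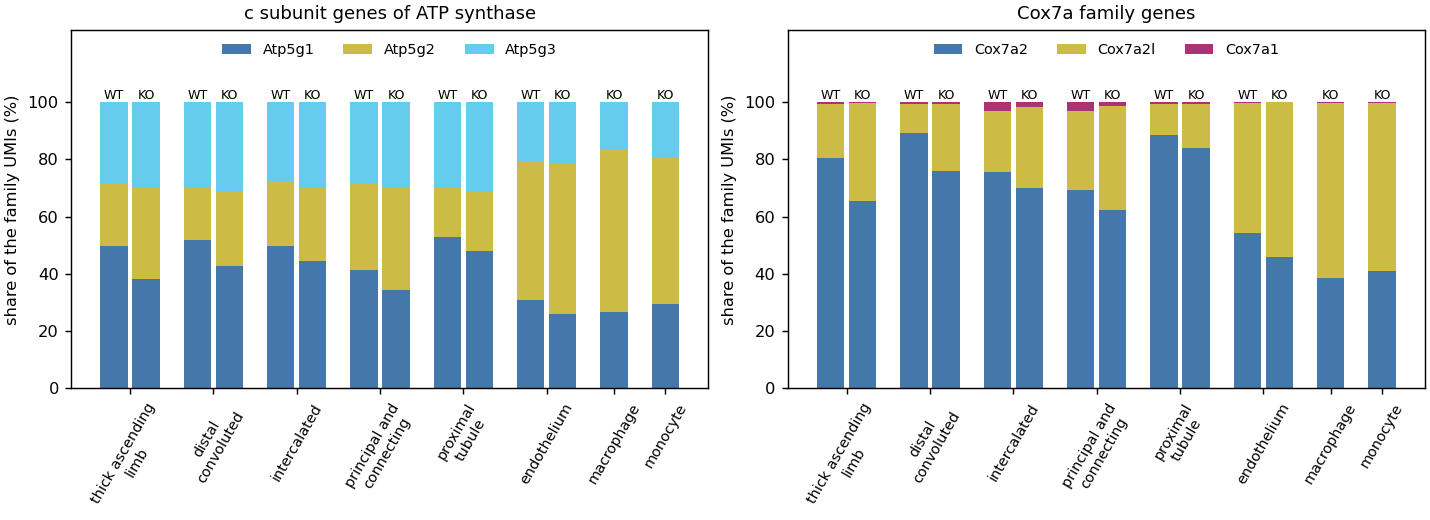
Share of family UMIs (y axis, %) given by each gene for the c subunit genes of ATP synthase (left) and the Cox7a family (right), by cell class and library (WT or KO above each bar). Atp5g2 takes 21.6% and 32.2% of the c subunit UMIs in wild type and knockout thick ascending limb, and 56.6% in macrophage-like cells, for which only the knockout library had enough cells.

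Cox6a2 (chr7:128205435-128206387, minus strand), the heart and skeletal muscle form of subunit 6a, was read mostly in proximal tubule, with 663 of 674 wild type UMIs and 27 of 44 knockout UMIs. It had 21.6 CPM (20.0 to 23.3) in 483 of 2964 wild type cells and 2.57 CPM (1.69 to 3.74) in 24 of 998 knockout cells, a log2 ratio of -3.05 (-3.68 to -2.52), the lowest of any subunit with at least 20 UMIs in any of the 6 classes. In the same cells the ubiquitous Cox6a1 had 671 and 669 CPM. Within wild type, Cox6a2 differed along the tubule: it had 29.6 and 34.97 CPM in the 2 clusters with Slc5a2 and Slc5a12, glucose and lactate carriers, among their leading genes, 48.5 in a cluster with a median of 927 UMIs per cell, and 5.27 and 3.04 in the clusters led by Kap and Slc22a30. The cluster with most knockout cells, led by Slc13a1 and Cyp4a14, had 2.10 CPM (1.30 to 3.21). In the 3 clusters with cells of both libraries, the knockout library gave 6 UMIs in all: 1 against 453 in wild type, 2 against 24 and 3 against 141, which is 3.34, 34.1 and 23.9 CPM. Only in the first did the intervals not overlap. Knockout macrophage-like cells had 2.71 CPM (1.24 to 5.14) and monocyte-like cells 5.50 (2.21 to 11.3), so the knockout proximal level lay within the range of cells that are not tubule. Thick ascending limb cells had no UMI, which allows up to 0.940 CPM in wild type and 0.414 in knockout. The 16 listed proximal markers summed to 39789 and 14279 CPM in proximal tubule and to 458 and 72.4 in the thick ascending limb, and the part of free RNA was not tested.

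Cox6b2, the testis form of subunit 6b, had low levels in many classes. In proximal tubule it had 17.8 CPM (16.4 to 19.4) in wild type and 35.9 (32.3 to 39.7) in knockout, a log2 ratio of 1.01, and in principal and connecting cells 9.57 from 10 UMIs and 21.5 (1.10, 0.27 to 2.25). Over non-mitochondrial UMIs the proximal ratio was 0.84. In the 3 shared proximal clusters the knockout levels rest on 9, 2 and 2 UMIs, at 19.3 and 30.0 CPM, 16.2 and 34.1, and 20.3 and 15.95, all with overlapping limits. The cluster of 869 knockout and 8 wild type cells (36.2 CPM, 32.5 to 40.1) held 362 of the knockout UMIs. Cycling cells had the most, with 81.1 CPM (64.0 to 101) in wild type and 67.6 (58.3 to 78.0) in knockout, and these intervals overlapped. In all these cells Cox6b1 was far ahead, with 97.7% or more of the family UMIs in proximal tubule and 95.6% and 94.8% in cycling cells.

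Both hypoxia-linked isoform genes of complex IV marked mural cells, the class of smooth muscle, pericyte and renin cells. Cox4i2 (chr2:152754173-152765037) had 226 CPM (164 to 303) in 48 wild type and 135 (89.6 to 195) in 37 knockout mural cells, where it gave 19.8% and 12.8% of the subunit 4 UMIs. Ndufa4l2 (chr10:127514967-127517154) had 349 CPM (271 to 442) and 390.2 (309.9 to 485) there. For both genes the intervals of the 2 libraries overlapped. In thick ascending limb and distal convoluted cells of either library neither gene had a UMI (up to 0.940 and 1.79 CPM in wild type), and proximal tubule had none of Cox4i2 and 5 UMIs of Ndufa4l2. Cox8b, the muscle and brown fat form of subunit 8, had 5 UMIs in all wild type cells. Of its 661 knockout UMIs, 646 lay in 36 cells of a cluster of 64 knockout cells led by fat genes (Cfd, Retn, Fabp4, Adipoq).

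**Figure D5:**
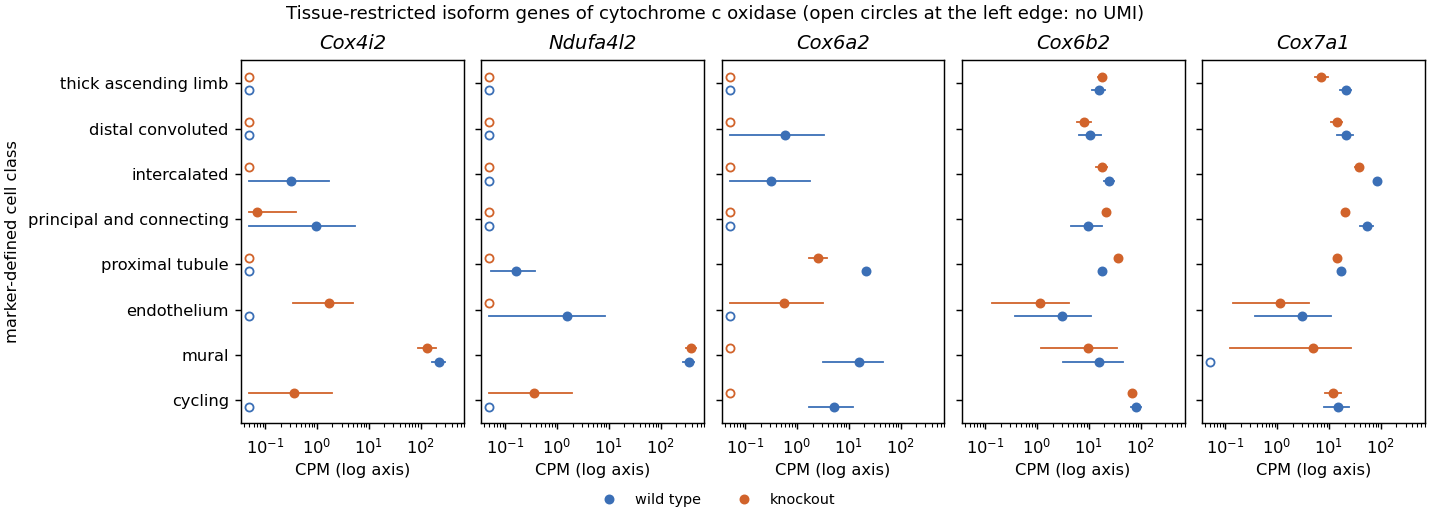
Level of 5 isoform genes of cytochrome c oxidase in CPM (x axis, log scale) by cell class (y axis) in the wild type (blue) and knockout (orange) library; lines are 95% counting intervals, cut at the left edge, and open circles mark classes with no UMI. Cox4i2 and Ndufa4l2 reach 226 and 349 CPM in wild type mural cells, and Cox6a2 lies at 21.6 and 2.57 CPM in proximal tubule.

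Genes around the respiratory chain were taken from lists, read against the same shares of all genes as the subunits. The 13 mitochondrially encoded subunits were at least 1.5-fold lower over all UMIs in 13 of 13 cases in the thick ascending limb, the distal convoluted class and intercalated cells, in 12 in principal cells, 11 in endothelium and 7 in proximal tubule. In the thick ascending limb their median log2 ratio was -1.87, below the -0.77 of the nuclear subunits. Electron carriers followed: cytochrome c (Cycs) had 699 CPM in wild type and 269 in knockout (-1.38) and the flavoprotein subunit Etfa 314 and 130.4 (-1.27). The inhibitor of reverse ATP hydrolysis, Atpif1, went the other way, with 505 and 974.8 CPM (0.95). Of 16 measured subunits and carriers outside the symbol rule, 9 were lower and 1 higher there.

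The tricarboxylic acid cycle, which supplies the electrons, was lower in 11 of 14 genes in the thick ascending limb (13 over non-mitochondrial UMIs), and in 5, 2, 3, 1 and 0 of 14 in distal convoluted, intercalated, principal, proximal tubule and endothelial cells. The shares of all genes lower by that much in these 6 classes were 8.94%, 7.39%, 7.42%, 15.3%, 8.48% and 10.8%, and 18.7% in the thick ascending limb over non-mitochondrial UMIs. Of 47 measured assembly factors in the thick ascending limb 9 were lower and 4 higher (median -0.11), and of 77 mitochondrial ribosomal proteins 3 were lower and 3 higher (0.020). Of all genes there, 8.94% were lower and 43.6% higher with a median of 0.48, and 4 of 47 and 3 of 77 higher are smaller shares than that. Over non-mitochondrial UMIs these lists stood at -0.56 and -0.43, above the -1.22 of the subunits. Cytosolic ribosomal proteins were higher in 74 of 88 (0.96 over all and 0.51 over non-mitochondrial UMIs). Among the 11 membrane carriers, the adenine nucleotide carrier Slc25a5 had 1305 and 598 CPM (-1.13), while the uncoupling protein Ucp2 had 40.8 and 174 (2.09).

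Among 17 listed transcriptional regulators of the pathway, those named here were chosen after their values were seen. In the thick ascending limb the coactivator Ppargc1a had 281 CPM in wild type and 114 in knockout (-1.30), its relative Ppargc1b 43.6 and 11.3 (-1.94), and the estrogen-related receptor genes Esrra 60.5 and 35.3 (-0.78), Esrrb 41.4 and 9.65 (-2.10) and Esrrg 24.5 and 7.44 (-1.71). Nrf1 had 8.15 and 13.8 CPM (0.74), Yy1 64.3 and 96.5 (0.58) and Gabpa 13.5 and 15.99 (0.24, and -0.21 over non-mitochondrial UMIs). Tfam, which packages and transcribes mitochondrial DNA, had 55.2 and 41.9 (-0.40). Over the list, 6 of 17 regulators were lower and 4 higher on the all-UMI scale, where 8.94% and 43.6% of all genes were. The median gene stood at 0.48 on that scale, close to the ratio of Yy1. Over non-mitochondrial UMIs 9 of the 17 were lower and 2 higher (18.7% and 22.3% of all genes). In proximal tubule Ppargc1a had 63.4 and 66.7 CPM (0.073) and Esrra 79.1 and 49.6 (-0.67). In principal and connecting cells Ppargc1a had 153 and 70.3 CPM (-1.13). Most of the knockout cells of that class (825) sat in a cluster with 9 wild type cells. The part of any regulator in the subunit levels was not tested.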

How the data were processed

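Single kidney cells were profiled by 10x 3′ sequencing in 1 wild type and 1 knockout library. The authors deposited filtered matrices of UMI counts, not normalized. Software version 3.1.0 stands in the matrix header, while the submitters' processing notes name Cell Ranger 3.0.2, Seurat 3.1.1 and the build mm10. Counting reads of paralogs and overlapping genes was not rechecked, so near-identical copies are uncertain.

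Barcodes with at least 500 UMIs, 200 genes and under 50% mitochondrial UMIs were kept. Scrublet removed 54 wild type and 170 knockout doublets. Cells were clustered together in scanpy 1.11.5 (2000 variable genes without subunit and mitochondrial genes, 30 components, 15 neighbours, Leiden resolution 1). Names needed at least 3 markers at 50 CPM, 20 UMIs and 2-fold over the other clusters. The naming rule was set after the clusters were seen, and clusters with leading genes of a rival type stayed unnamed. Classes with at least 100 cells in each library were compared, and levels are given from 30 cells up.

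UMIs were summed per class. Log2 ratios carry 0.5 added UMIs and exact conditional Poisson intervals, levels exact Poisson intervals. The intervals were checked on simulated Poisson counts with no variation between cells, clusters or libraries, so this check covers counting error only. TMM factors came from edgeR 4.0.16. Gene coordinates are those of GENCODE vM21 on GRCm38. Genes needed 20 UMIs over both libraries. Named were the 3 highest and 3 lowest ratios per class among subunits with at least 100 UMIs, 10 core subunits and the isoform genes. Other genes were chosen after their values were seen. Members and lists were chosen with earlier results of these data known. The alternatives tried are given in the closing section.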

Additional observations from a re-analysis of the deposited data

Results flagged for a closer look

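Cox8b stood at 586 CPM in a cluster of 64 knockout cells that belongs to no compared class and whose leading genes are those of fat (Cfd, Car3, Retn, Fabp4, Adipoq). It was singled out because this level lies above that of the control library, where all kept cells together gave 5 UMIs, or 0.118 CPM. No wild type cell fell in this cluster, and the source of these cells was not tested.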

How the results depend on the processing

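No paired analysis was possible because each genotype has 1 library and no test was made. Each value is set against all UMIs, in the order thick ascending limb, distal convoluted, intercalated, principal and connecting, proximal tubule and endothelium. In place of -0.80, -0.51, -0.23, -0.12, 0.011 and 0.0049, non-mitochondrial UMIs gave -1.25, -0.92, -0.49, -0.25, -0.16 and -0.057. TMM factors gave -1.22, -0.94, -0.50, -0.085 and -0.27 in the first 5, and median-of-ratios factors -1.22, -0.95, -0.49, -0.091 and -0.28. A mitochondrial limit of 25% gave -0.83, -0.58, -0.32, -0.17 and -0.097. Classes gated cell by cell on markers gave -0.58, -0.58, -0.15, -0.26, 0.016 and 0.32, and the mean over cells gave -0.89, -0.42, -0.31, -0.055 and 0.10 in the classes other than principal and connecting. Clustering at resolution 0.5 gave -0.29 in distal convoluted, -0.42 in intercalated and 0.0031 in proximal tubule, and no principal class of 30 wild type cells. Resolution 2 gave -0.34 in intercalated, -0.17 in principal and 0.034 in proximal tubule.

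Both remaining alternatives were chosen after seeing the data and use non-mitochondrial UMIs. Cells with 10% to 30% mitochondrial UMIs gave -0.48, -0.31, -0.28, -0.067, -0.099 and -0.44. Clusters with 30 cells of each library gave -0.26, -0.49, 0.12, -0.099 and -0.057 in the 5 classes that have one. Of these sums and the counts of lowered subunits, 58 values moved (a sum beyond its counting limits, a count by more than 1.5 times) and 24 did not. The cause was not tested.

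The number of subunits at least 1.5-fold lower went from 19 to 70 (non-mitochondrial) and 71 (TMM) in distal convoluted, from 4 to 28 and 28 in intercalated, and from 2 to 4 and 7 in proximal tubule. In principal and connecting cells it went from 4 to 9 over non-mitochondrial UMIs and to 7 with no UMI minimum, and in endothelium from 0 to 3 with no minimum. The share of all genes lower by that much also rose from all to non-mitochondrial UMIs. It went from 7.39% to 16.5% in distal convoluted, 7.42% to 13.3% in intercalated and 8.48% to 12.0% in proximal tubule. In principal and connecting cells it went from 15.3% to 20.5%, and in endothelium from 10.8% to 12.7%. This share was not computed for TMM factors or without a minimum. The median gene moved from 0.48 over all UMIs to 0.031 over non-mitochondrial UMIs in the thick ascending limb. With 1 library per genotype, counting error is the only error that could be measured, and low genes such as Cox6a2 in single clusters rest on a few UMIs.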
